A study of Melitaea cinxia with 170 samples.

Results

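Recovery after flight was followed in the thorax of female Glanville fritillary butterflies (Melitaea cinxia) from the population labelled PT, the Baltic island of Pikku Tytärsaari. The butterflies were chosen by their labels alone: population PT, sex Female, and a flight treatment. That gave 19 of the 85 butterflies sequenced in the series, 9 labelled Flight20h and 10 labelled Flight1h. The Flight20h butterflies were frozen 17 to 24 h (average 20.5 h) after the flight treatment began, having spent the night alone in cages with food at 18 °C and the daylight hours at 24 to 28 °C. The Flight1h butterflies were frozen 56 to 69 min (average 62 min) after it began. PT female controls were handled alike but not flown: 5 were frozen the next morning (Control20h) and 4 after 1 h (Control1h). Females from AL, the Åland islands, gave 10 Flight20h and 7 Flight1h butterflies, and PT males gave 6 of each. Gene lists chosen in AL also used AL males, 5 at Flight20h and 6 at Flight1h. They used AL controls too, with 4 females and 2 males at each of Control20h and Control1h. How long each butterfly flew, and the age of any butterfly, are not given in the labels. Each butterfly was frozen once, so the times compare different individuals.

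The thorax carries the wings and is filled largely by flight muscle, together with nerve, fat body, tracheae and blood cells. Butterfly flight muscle contracts once for each nerve impulse, and in flight it is among the most energy-demanding of animal tissues, burning sugars and, in sustained flight, lipids released from the fat body. In mammals, exercise changes muscle transcript levels in waves, with an early wave soon after activity and a later one during rest and refuelling. Whole thoraces were extracted, so fewer cells of a type and less RNA per cell cannot be told apart. The gene models carry project identifiers, none of which matched the available table of names, so they are described by identifier and behaviour, without function. For the same reason no cell-type marker was checked.

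Each butterfly gave 2 libraries, with average inserts of 450 and 650 nt, whose read counts were summed. Totals of the flown PT females ran from 2173156 to 5465752 counts (median 3239530), and levels are given as CPM, the counts scaled to a common library size. Total counts, the share of the 10 most abundant genes and the number of genes detected did not differ detectably between Flight20h and Flight1h: totals averaged 3467386 ± 989828 and 3340337 ± 665062 (SD, n = 9 and 10; exact permutation test, 2-sided, p = 0.749). The share was 23.23% ± 3.11 in Flight20h and 23.76% ± 3.37 in Flight1h (exact permutation p = 0.729), and the genes detected were 8697 ± 858 and 8848 ± 763 (exact permutation p = 0.685; all 3 had an adjusted p of 0.749). The labels of sex and population were checked first. The genes used had been named for these labels in earlier results of the same series, so the check is not independent. MCINXTMP_012856 separated the sexes, with 7.54 to 58 CPM in the 19 flown PT females against 0 to 3.59 CPM in the 32 males of the series. MCINXTMP_010661 stood at 11.1 to 695 CPM in these females against 0 to 13.6 CPM in the 40 AL butterflies, so its ranges overlap between 11.1 and 13.6 CPM. MCINXTMP_006156 stood at 0 to 8.01 CPM against 0.417 to 518 CPM in AL, and its ranges overlap too. In all 19, each library resembled the other library of its own butterfly more than any other library of that other insert size. Their correlations ran from 0.335 to 0.718, and libraries of the same insert size were not compared.

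The time labels were less clear cut. For the genes that flight raised in AL, 4 of the 10 butterflies labelled Flight1h had a mean level below that of the other 6. Replicates 2, 4 and 7 had −1.13, −1.30 and −1.55 on the log2 scale described below. Replicate 1 was intermediate at 0.07, and the lowest of the 6 had 0.70. Among the 9 labelled Flight20h, 1 butterfly lay inside the range of those 6, and so did 3 of the 5 unflown Control20h butterflies. These butterflies are described below. They were singled out after their values were seen, no group was redefined, and every test uses the labels as given.

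MCINXTMP_003386 and MCINXTMP_009203 show the pattern most plainly. Earlier results of this series had named them for a difference between the effects of flight at 20 h and 1 h, so they are described without a test. MCINXTMP_003386 stood at 0.795 to 76.3 CPM in Flight20h (median 3.2, n = 9) and at 0.594 to 134 CPM in Flight1h (median 51.7, n = 10). In Flight20h, 8 butterflies lay at or below 13.7 CPM and replicate 7 alone reached 76.3 CPM. In Flight1h, replicates 1, 2, 4 and 7 had 2.62, 2.15, 1.42 and 0.594 CPM, and the other 6 butterflies ran from 37.6 to 134 CPM, with none between. The groups overlapped up to 76.3 CPM, and 4 Flight1h butterflies lay above it. The fitted log2 fold change was −2.06. Over single omissions it ran from −3.44, without Flight20h replicate 7, to −1.77.

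MCINXTMP_009203 split the same butterflies. It stood at 6.4 to 193 CPM in Flight20h (median 24.3), again with replicate 7 highest and the next at 82.8 CPM. In Flight1h (median 172) replicates 1, 2, 4 and 7 had 18.7, 10.8, 4.05 and 9.2 CPM, and the other 6 ran from 136 to 630 CPM. The log2 fold change was −2.15. Over single omissions it ran from −2.82, without Flight20h replicate 7, to −1.78. Controls of the same sex and island had the reverse order, with medians of 92.1 CPM in Control20h and 11.7 CPM in Control1h. In Control20h, replicates 1 and 2 had 8.64 and 8.29 CPM, and replicates 3, 4 and 5 had 270, 92.1 and 136 CPM. In Control1h the 4 butterflies had 2.42 to 24.8 CPM. Neither gene divided the flown AL females in this way: MCINXTMP_009203 stood at 16.1 to 95.4 CPM in AL Flight20h (n = 10) and at 173 to 650 CPM in AL Flight1h (n = 7), with no overlap. PT males at Flight1h (n = 6) spread widely, from 6.82 to 314 CPM for MCINXTMP_009203 and from 4.7 to 89.3 CPM for MCINXTMP_003386. Their Flight20h butterflies (n = 6) had 6.5 to 36.5 CPM and 1.58 to 18.7 CPM, so both genes overlapped there too. Unflown AL females spread more widely at 20 h, with 9.07 to 141 CPM in Control20h (median 23.9, n = 4) and 7.27 to 28.2 CPM in Control1h (n = 4) for MCINXTMP_009203. MCINXTMP_003386 stood at 1.21 to 48.6 CPM in AL Control20h (median 6.85) and at 1.06 to 3.55 CPM in AL Control1h.

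**Figure D1:**
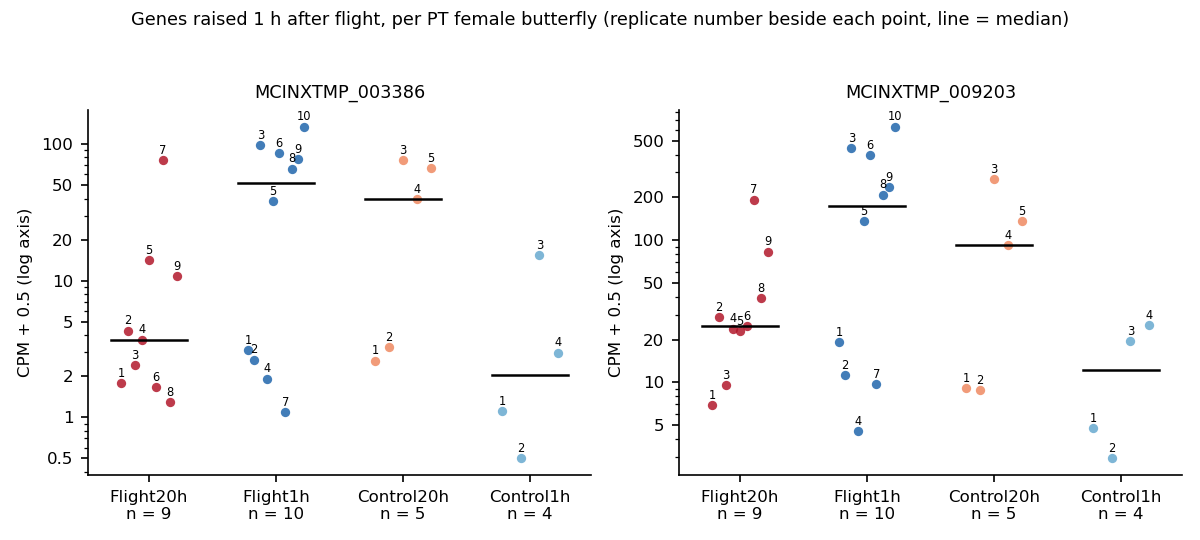
CPM plus 0.5 (log axis) of MCINXTMP_003386 and MCINXTMP_009203 in each PT female, by treatment and time, with replicate numbers beside the points and the median as a line. Flight1h replicates 1, 2, 4 and 7 lie with the low butterflies in both genes, while Flight20h replicate 7 and Control20h replicates 3, 4 and 5 lie with the high ones. The exception is Control20h replicate 4 for MCINXTMP_009203, which lies between low and high at 92.1 CPM.

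A wider set of 10 genes, which includes MCINXTMP_003386 and MCINXTMP_009203, was read next. These were the genes called higher 1 h after flight than in controls frozen at 1 h in the AL butterflies of both sexes (10 of 7643 genes tested, 0.131%), and their choice used no PT butterfly's level, although all 85 butterflies share the estimate of spread. In PT females all 10 were lower at 20 h than at 1 h, with a median log2 fold change of −1.02 (−2.15 to −0.40), where 49.8% of all genes tested were lower and the median was 0.003. Without Flight20h replicate 7 all 10 were again lower, with a median of −1.57. Over all single omissions of a flown PT female 9 or 10 were lower, with medians from −1.57 to −0.89. An unadjusted p under 0.05 was reached by 6 of the 10, always lower, against 5.16% of all genes. In the PT female controls all 10 were higher at 20 h than at 1 h (49.5% of all genes), with a median of 1.44. It was 9 of the 10 with DESeq2 size factors and under some other settings. In PT males 8 of 10 were lower at 20 h (49.7% of all genes), with a median of −1.57.

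The mean level of these 10 genes was computed for each butterfly as the average of log2 CPM minus the mean over all 85 butterflies. It ran from −1.03 to 0.30 in 8 of the Flight20h butterflies and was 1.30 in replicate 7. In Flight1h it was 0.07, −1.13, −1.30 and −1.55 in replicates 1, 2, 4 and 7, and 0.70 to 2.22 in the other 6. The 4 low replicates were also the 4 lowest for 4 of the 10 genes taken singly, among them MCINXTMP_003386, MCINXTMP_009203 and MCINXTMP_012850. Flight20h replicate 7 was the highest of 9 for 7 of the 10. In Control20h the level was −0.86 and −0.77 in replicates 1 and 2 but 1.8, 0.99 and 1.22 in replicates 3, 4 and 5, and in Control1h it was −2.05 to −0.32. AL females at Flight1h ran from 1.07 to 1.84, AL females at Control20h from −1.45 to 0.77 with the other 3 at or below −0.44, and PT males at Flight1h from −0.81 to 1.98.

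The 450 nt and 650 nt libraries of each butterfly, read singly, gave the same placement. In replicates 1, 2, 4 and 7 of Flight1h the level was 0.04, −0.97, −1 and −1.47 in the 450 nt libraries and −0.16, −1.21, −1.38 and −1.44 in the 650 nt libraries. In Flight20h replicate 7 it was 1.18 and 1.46. Flight20h replicate 7 had 2173686 counts, the second-lowest total of the 19, and Flight1h replicates 1, 2, 4 and 7 had 3314709, 4284097, 4126518 and 3133968. The part of depth was not tested. The spread of the 10 genes over butterflies, as a median SD of log2 CPM, was 1.24 in PT females at Flight1h and 0.64 in AL females at Flight1h. The SD of the mean level at Flight1h was 1.45 in PT females, 0.96 in PT males and 0.28 in AL females. Why these butterflies differ from others of their label was not tested.

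Across all genes, no gene was called between Flight20h and Flight1h in PT females (0%, edgeR's quasi-likelihood test with Benjamini-Hochberg adjustment, smallest adjusted p = 0.111). An unadjusted p under 0.05 was reached by 735 of the 7643 genes (9.62%), of which 341 were higher and 394 lower at 20 h. DESeq2, run without the count filter on 15743 genes, called 29, of which 11 were higher and 18 lower, and on the genes of the filter, a choice made after seeing the data, it called 19. Limma voom called 3 of the filtered genes, all higher. A model that pooled both sexes of PT, with sex as an additive term, called 75 genes (0.981%), 44 higher and 31 lower, and all 75 had the same direction in the PT females, who are themselves in that model. The count moved with single butterflies: it was 16 without Flight20h replicate 7 (0.209%, 5 higher and 11 lower), 3 without Flight20h replicate 5 and 1 without Flight1h replicate 1. Of the 16, 12 were among the genes called in the recovery of AL butterflies (6.16% of all genes tested), all 12 in the same direction. Of the 16, 3 were among the 10 early genes. Flight20h replicate 7 was singled out by its level of genes chosen in AL, so this overlap is no separate evidence.

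The half-width of the 95% interval of a log2 fold change had a median of 0.931 over all genes, 1.61 in the 1911 genes of lowest level and 0.52 in the 1911 of highest level. For 2427 genes (31.8%) the whole interval lay within a 2-fold change either way. The 100 most abundant genes, which held 60.6% of the counts of the flown PT females, were placed near 0, with a median of 0.07. At 20 h 57 were higher and 43 lower, against 50.2% and 49.8% of all genes. Of the 100, 9 had an unadjusted p under 0.05, against 9.62% of all genes. In a principal component analysis of the 19 butterflies the first component took 12.4% of the variance, and the 2 times accounted for 0.076 of the spread of its scores. The share between times was larger on the fourth component (0.182) and the fifth (0.163), which took 7.05% and 6.75% of the variance.

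**Figure D2:**
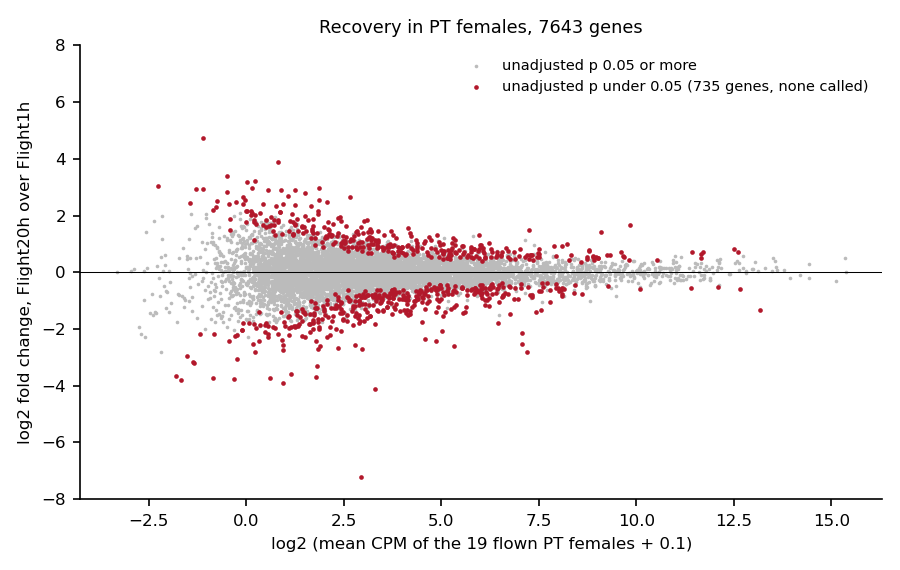
Log2 fold change of Flight20h over Flight1h in PT females (y axis) against the mean level in the 19 flown PT females (x axis, log2 scale) for the 7643 genes tested. The 735 genes with an unadjusted p under 0.05 lie on both sides of 0, 341 above and 394 below, and none passed the adjusted threshold.

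Groups that did not overlap were found for 1 gene, or 0.0131% of those tested, against 35 genes (0.458%) in AL females. That gene, MCINXTMP_000618, named after its values were seen, stood at 4.48 to 10.1 CPM in Flight20h (median 5.92) and at 10.3 to 29.9 CPM in Flight1h (median 14.2). The highest Flight20h butterfly and the lowest Flight1h butterfly were thus nearly equal. Its log2 fold change was −1.34 (SE 0.41, edgeR adjusted p = 0.208). Controls overlapped, with 5.29 to 16.3 CPM in Control20h and 3.67 to 19.7 CPM in Control1h. Its change was −0.25 in PT males and 0.94, the opposite direction, in AL females.

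The smallest p among higher and lower genes that averaged at least 5 CPM belonged to MCINXTMP_001520 and MCINXTMP_002945, and both missed the threshold. MCINXTMP_001520 had 29.6 to 87.6 CPM in Flight20h (median 56.4) and 15.4 to 49.6 CPM in Flight1h (median 27.3). The groups overlapped, although only 4 Flight20h butterflies lay below the highest Flight1h butterfly. The log2 fold change was 0.96 (SE 0.24, edgeR adjusted p = 0.14). Controls stood at 28.2 to 41.6 CPM in Control20h and 25.1 to 49.2 CPM in Control1h, a log2 fold change of 0.18 (SE 0.35). The change was 0.73 in PT males and −0.15 in AL females.

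MCINXTMP_002945 had 2.55 to 23.2 CPM in Flight20h (median 8.31) and 5.39 to 71.5 CPM in Flight1h (median 22.8). The groups overlapped at both ends: Flight20h replicates 7 and 3 had 23.2 and 15.1 CPM, and Flight1h replicate 2 had 5.39 CPM. The log2 fold change was −1.48 (SE 0.36, edgeR adjusted p = 0.14), and −1.77 without Flight20h replicate 7 (edgeR adjusted p = 0.014). Over all single omissions it ran from −1.77 to −1.17, with edgeR adjusted p from 0.014 to 0.262. Controls stood at 18.1 to 31.3 CPM in Control20h and 12.4 to 26.1 CPM in Control1h. The change was −0.25 in PT males and 0.21 in AL females. DESeq2 called both genes, with adjusted p = 0.034 for MCINXTMP_001520 and 0.0167 for MCINXTMP_002945.

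**Figure D3:**
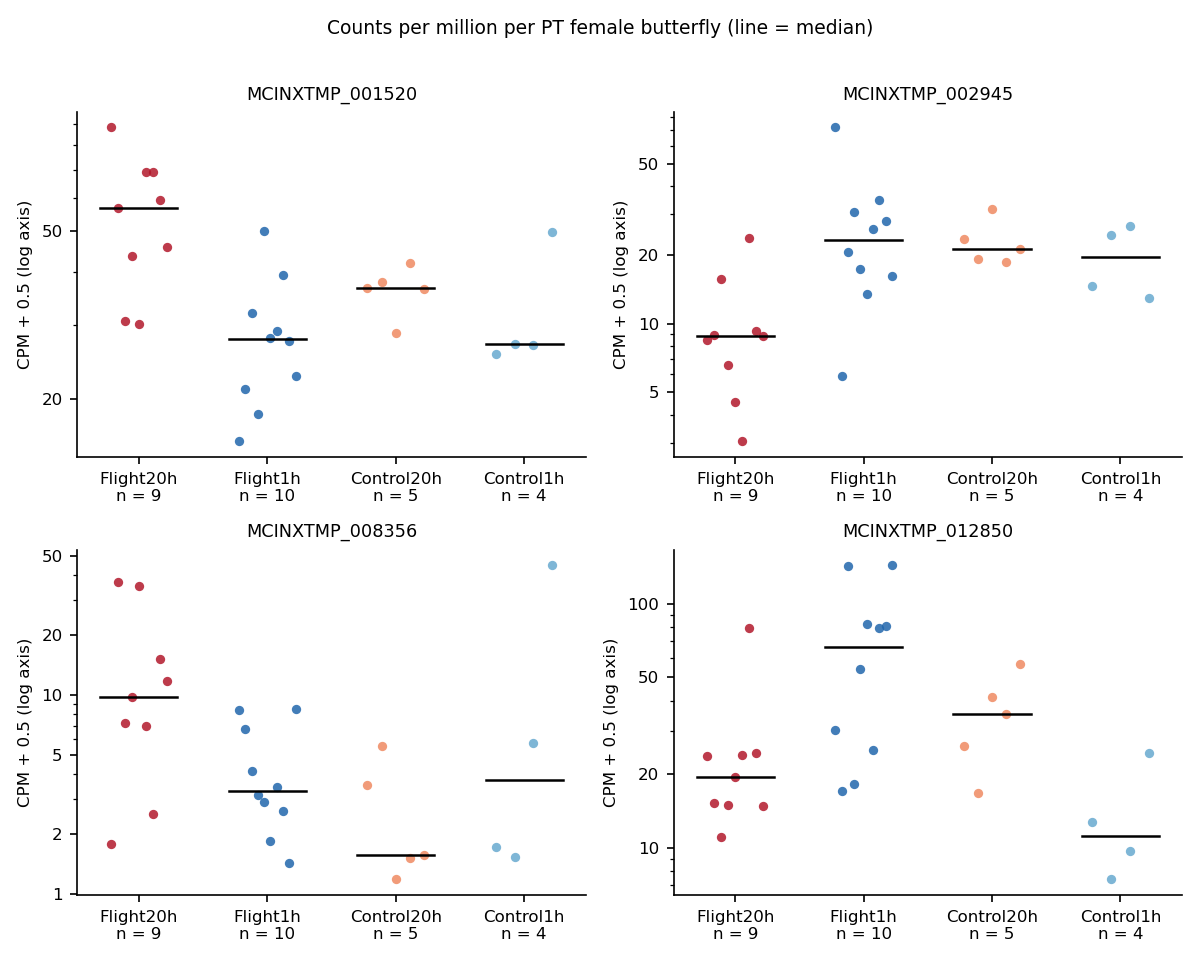
CPM plus 0.5 (log axes) of MCINXTMP_001520, MCINXTMP_002945, MCINXTMP_008356 and MCINXTMP_012850 in each PT female, by treatment and time, with the median as a line. The flown groups overlap in all 4 genes, and single butterflies stand apart, such as Control1h replicate 4 at 44.2 CPM for MCINXTMP_008356 and Flight20h replicate 7 at 78.8 CPM for MCINXTMP_012850.

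The genes that moved during recovery in AL gave a direction to read in PT females, since the islands share no butterfly. The mean recovery of AL females and males called 471 genes (6.16%), 281 higher and 190 lower at 20 h. Of the 281, 243 were higher at 20 h in PT females (86.5%, against 50.2% of all genes), with a median log2 fold change of 0.42. None was called singly in PT females, and an unadjusted p under 0.05 was reached by 77, all of them higher (4.46% of all genes). Of the 190, 147 were lower in PT females (77.4%, against 49.8% of all genes), with a median of −0.40. An unadjusted p under 0.05 was reached by 49, all lower (5.16% of all genes). The sizes were smaller than in AL females, where the medians were 1.15 and −0.97, but those butterflies helped to choose the lists.

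The counts in unflown PT females moved with single butterflies. Between Control20h and Control1h, 88 of the 281 genes were higher (31.3%, against 49.5% of all genes), with a median of −0.25, and 76 of the 190 were lower (40%, against 50.3% of all genes), with a median of 0.11. Without Control1h replicate 4, 144 of the 281 were higher (51.2%, against 52.3% of all genes), with a median of 0.01, and 92 of the 190 were lower (48.4%, against 47.7%), with a median of 0.03. Without Control20h replicate 4, 91 of the 190 were lower (47.9%, against 51.3% of all genes). With limma voom and every butterfly kept, 94 of the 190 were lower (49.5%, against 52%). In both settings 38.4% of the 281 were higher, against 48.7% and 48% of all genes. In PT males, 257 of the 281 were higher (91.5%, against 50.2% of all genes), with a median of 0.64. There 153 of the 190 were lower (80.5%, against 49.7% of all genes), with a median of −0.40. The lists are not separate from the early genes, since 9 of those 10 are among the 190 and both choices used the AL Flight1h butterflies.

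The mean level of the 281 genes ran from −0.54 to 0.92 in Flight20h (median 0.43) and from −0.34 to 0.39 in Flight1h (median −0.04), so the groups overlapped. The lowest Flight20h value, −0.54, belonged to replicate 7, and the next was −0.12. The mean level of the 190 genes ran from −0.98 to 0.23 in Flight20h (median −0.44) and from −0.51 to 0.40 in Flight1h (median 0.16), and replicate 7 had the highest Flight20h value. AL females did not overlap on either list, at 0.22 to 1.04 in Flight20h against −0.81 to −0.32 in Flight1h for the 281 genes.

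**Figure D4:**
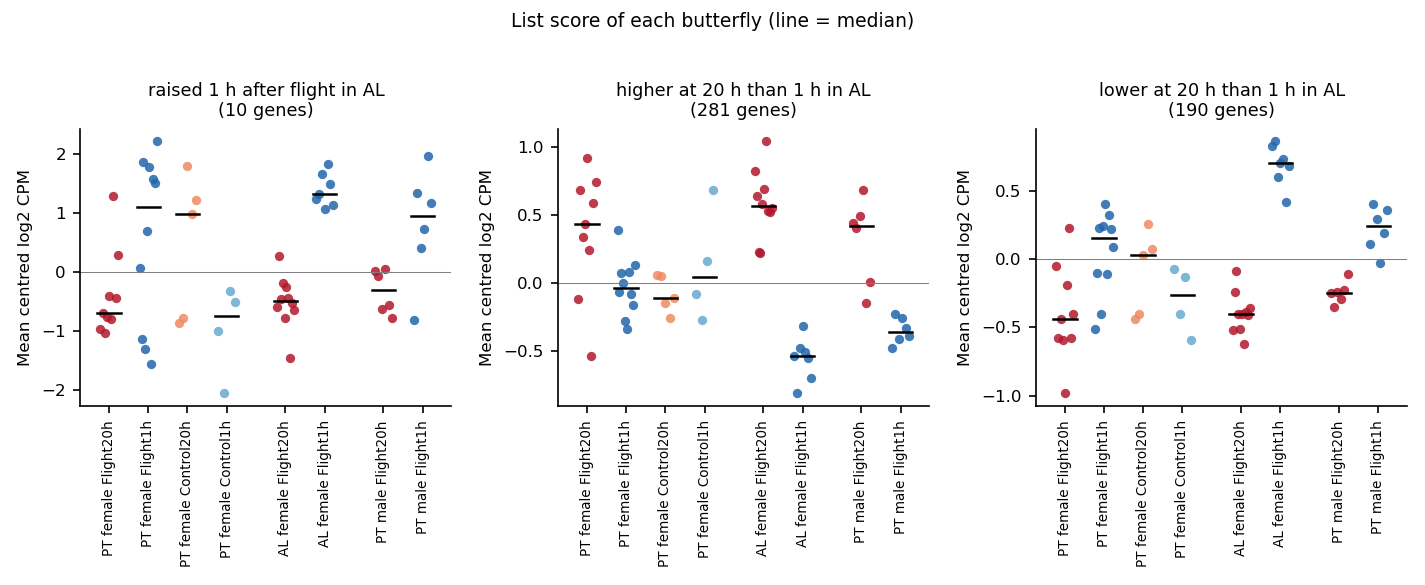
Mean centred log2 CPM of each butterfly (y axis) for the 10 genes raised 1 h after flight in AL, the 281 genes higher and the 190 genes lower at 20 h in AL, in PT females, AL females and PT males, with the median as a line. PT females at Flight20h and Flight1h overlap in all 3 panels, and the Flight1h group spreads from −1.55 to 2.22 in the first.

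**Figure D5:**
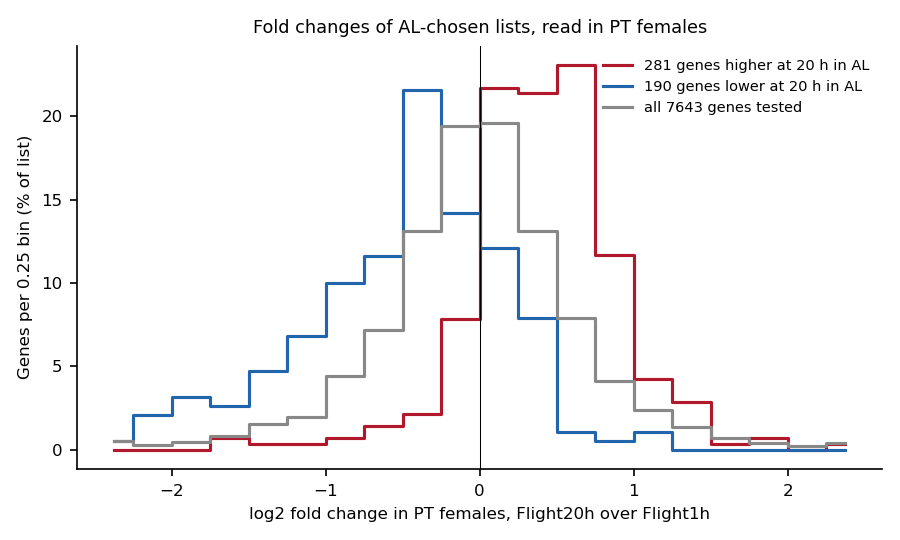
Distribution of the log2 fold change of Flight20h over Flight1h in PT females, as percent of each list per bin of 0.25, for the 281 genes higher in AL, the 190 genes lower in AL and all 7643 genes tested, with values beyond the axis placed in the end bins. The list medians lie at 0.42 and −0.40, on either side of the median of all genes at 0.003.

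Lists with fewer genes leaned the same way. In AL, 55 genes were called 20 h after flight against controls (0.72%). That choice used the same AL Flight20h butterflies as the AL recovery lists. Of the 30 higher, 25 were higher at 20 h in PT females (83.3%, against 50.2% of all genes, median 0.47). Of the 25 lower, 17 were lower (68%, against 49.8% of all genes, median −0.29). The recovery of PT males called 7 genes (0.0916% of those tested). The 5 higher were all higher in PT females (median 0.83) and the 2 lower were both lower (median −1.15), beside the same 50.2% and 49.8% of all genes. Read the other way, of the 341 genes with an unadjusted p under 0.05 and higher at 20 h in PT females, 231 were higher in AL females (67.7%, against 49.7% of all genes), 255 in PT males (74.8%, against 50.2%) and 117 in PT female controls (34.3%, against 49.5%). Of the 394 lower genes, 255 were lower in AL females (64.7%, against 50.3% of all genes), 288 in PT males (73.1%, against 49.7%) and 142 in the controls (36%, against 50.3%). Without Control1h replicate 4 the control counts were 188 of the 341 (55.1%, against 52.3%) and 176 of the 394 (44.7%, against 47.7%).

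The overnight stay without flight was compared next. No gene was called between Control20h and Control1h in PT females (0%, edgeR, smallest adjusted p = 0.293), 392 had an unadjusted p under 0.05 (5.13%), DESeq2 called 13 (11 on the same genes), and limma voom called 4. The median half-width of the interval was 1.36 with 5 and 4 butterflies. The smallest p among higher genes was that of MCINXTMP_010591, at 54.6 to 111 CPM in Control20h and 16.2 to 48.3 CPM in Control1h. These groups did not overlap (log2 fold change 1.33, SE 0.32, edgeR adjusted p = 0.293), while the flown butterflies had medians of 61.6 CPM in Flight20h and 59.7 CPM in Flight1h. Among lower genes it was that of MCINXTMP_010806, at 1.02 to 3.97 CPM in Control20h and 5.52 to 19.3 CPM in Control1h (log2 fold change −2.63, SE 0.65, edgeR adjusted p = 0.293).

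The difference between the change in flown butterflies and that in controls had no called gene (0%, edgeR, smallest adjusted p = 0.0886). An unadjusted p under 0.05 was reached by 660 genes (8.64%), DESeq2 called 34 (28 on the same genes), and limma voom called 5. Without Control1h replicate 4 the unadjusted count was 419, with 167 positive and 252 negative differences. Single butterflies moved the count of calls too, to 14 without Control1h replicate 2, 8 without Flight20h replicate 7, 7 without Flight1h replicate 1, 2 without Flight1h replicate 5, and 1 each without Control1h replicate 1 and without Flight20h replicate 9.

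Earlier results of these data had already named MCINXTMP_008356 for a difference between the effects of flight at 20 h and 1 h. The test is thus no separate evidence for MCINXTMP_008356, which had the smallest p with a positive difference. It stood at 1.28 to 36.3 CPM in Flight20h (median 9.28) and 0.931 to 7.98 CPM in Flight1h (median 2.8). In Control20h it stood at 0.688 to 5.06 CPM, and in Control1h at 1.22, 1.04, 5.27 and 44.2 CPM. The flown butterflies differed by 1.83 on the log2 scale and the controls by −2.52, a difference of 4.35 (SE 0.95, edgeR adjusted p = 0.0886). It rested largely on Control1h replicate 4, the butterfly at 44.2 CPM, without which it was 2.05 (edgeR adjusted p = 0.846).

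MCINXTMP_012850, one of the 10 early genes, had the smallest p with a negative difference. It stood at 10.5 to 78.8 CPM in Flight20h (median 18.9) and 16.6 to 143 CPM in Flight1h (median 66.1). Replicates 1, 2, 4 and 7 were again the lowest of Flight1h, at 29.8, 16.6, 17.8 and 24.6 CPM, and replicate 7 was the highest of Flight20h. Controls stood at 16.3 to 56.1 CPM in Control20h and 6.91 to 24 CPM in Control1h. The difference was −2.87 (SE 0.68, edgeR adjusted p = 0.0886), and −3.31 without Flight20h replicate 7 (edgeR adjusted p = 0.021). Over all single omissions it ran from −3.32 to −2.62, with edgeR adjusted p from 0.021 to 0.228.

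MCINXTMP_015257, which earlier results of the series had named for a larger flight effect at 20 h, is given as a description. It stood at 3.53 to 71.2 CPM in Flight20h (median 19.8) and 2.89 to 84.6 CPM in Flight1h (median 11). The groups overlapped over nearly their whole range, with a log2 fold change of 0.50, or 1.15 without Flight1h replicate 1, the butterfly at 84.6 CPM, and 0.17 without Flight20h replicate 5, the butterfly at 71.2 CPM. In AL females the ranges were 20.7 to 114 CPM in Flight20h and 4.11 to 27.9 CPM in Flight1h, a log2 fold change of 1.77.

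Recovery itself called 174 genes in AL females (2.28%), 115 higher and 59 lower, but a call in one island and not in the other does not show a difference. The difference between recovery in PT females and in AL females was called for 1 gene (0.0131%, edgeR), with 653 genes at an unadjusted p under 0.05 (8.54%). That gene, MCINXTMP_016177, was level in PT females, at 62.7 to 252 CPM in Flight20h (median 131) and 78.1 to 185 CPM in Flight1h (median 120). In AL females it stood at 74.5 to 154 CPM in Flight20h (median 95.5) and 145 to 510 CPM in Flight1h (median 205). The changes were 0.25 (SE 0.22) in PT females and −1.38 (SE 0.23) in AL females, a difference of 1.62 (SE 0.32, edgeR adjusted p = 0.0186).

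The call for MCINXTMP_016177 depended on single butterflies of both islands. The adjusted p was 0.151 without AL Flight1h replicate 1, 0.106 without AL Flight1h replicate 2, 0.0758 without AL Flight20h replicate 7, 0.0918 without PT Flight20h replicate 1 and 0.0505 without PT Flight20h replicate 6 (edgeR). The difference kept its direction, at 1.37 to 1.71 over all single omissions.

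No gene was called for the difference between recovery in PT females and in PT males (0%, edgeR, smallest adjusted p = 0.72), with 333 genes at an unadjusted p under 0.05 (4.36%), 5 called by DESeq2 (1 on the same genes) and 0 by limma voom. The median half-width of the interval of this difference was 1.49. MCINXTMP_006125 had the smallest p among positive differences. It stood at 24.4 to 73.1 CPM in Flight20h and 20.4 to 45.3 CPM in Flight1h of PT females, and at 19.2 to 29.7 CPM in Flight20h and 32.1 to 54.9 CPM in Flight1h of PT males. The groups overlapped in females and not in males, and the difference was 1.41 (SE 0.36, edgeR adjusted p = 0.72). Among negative differences it was MCINXTMP_000194, at 1.6 to 11.7 CPM in Flight20h and 4.21 to 27.5 CPM in Flight1h of PT females, and at 5.5 to 26.9 CPM in Flight20h and 4.6 to 7.37 CPM in Flight1h of PT males (difference −2.17, SE 0.61, edgeR adjusted p = 0.971).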

How the data were processed

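RNA was extracted from frozen thorax and sequenced from strand-specific libraries anchored at the polyA tail, per the labels' protocols. The submitters' processing notes name CASAVA 1.8, TopHat2 2.0.5 and edgeR; the genome build, annotation, counting tool and strand setting were not given in the sources used here, so reads of overlapping or near-identical genes may be split unseen. Unnormalized counts of reads, 1 value per gene model in each of 170 libraries, were deposited by the authors. The authors also deposited a normalized signal table of 8258 genes, whose values equal the summed counts times 1 factor per butterfly (100% within 0.0006 plus 1e-06 of the value); its gene list was an alternative filter. No column of per-sample values was left unused.

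The libraries of each butterfly were summed, and the butterfly is the replicate. Filtering with filterByExpr left 7643 genes holding 99.76% of the counts. After TMM scaling, edgeR 4.0.16 (R 4.3.3, robust quasi-likelihood F test) was fitted to all 85 butterflies with 16 means of population by sex by treatment. Benjamini-Hochberg adjustment ran over every gene in the fit, and an adjusted p under 0.05 made a call. SE is the absolute log2 fold change over the square root of F. Log2 CPM used a prior count of 2. Alternatives used DESeq2 1.42.0, limma 3.58.1 (voom with quality weights), other scalings, filters and libraries, and single butterflies left out. The code was tested on simulated counts. The named genes are, for each comparison, the called gene or, where none was called, the higher and the lower gene of smallest p that average at least 5 CPM, plus the 4 identifiers and 3 label checks named in earlier results. Groups, lists and named identifiers were chosen with earlier results of these data known.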

Additional observations from a re-analysis of the deposited data

Results flagged for a closer look

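Of 66 sets of values checked for a sample far from the others, 3 held one, and chance gives about 1 in 20. In PT female Control1h, replicate 4 stood apart for MCINXTMP_001520 at 49.2 CPM and for MCINXTMP_006125 at 38.0 CPM, which is the same butterfly that reached 44.2 CPM for MCINXTMP_008356. In PT female Flight20h, replicate 7 stood apart for MCINXTMP_012850 at 78.8 CPM. The recovery of MCINXTMP_016177 differed between PT females and AL females by a test of the difference itself (edgeR adjusted p = 0.0186).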

How the results depend on the processing

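The count of genes called in the recovery of PT females was 0 in edgeR's main test, 29 by DESeq2, 3 by limma voom, 1 from the 650 nt libraries alone and 75 with both sexes of PT pooled, and 0 to 16 when each flown PT female was left out. DESeq2 size factors, leaving out the 100 most abundant genes, no count filter, the genes of the authors' table, the 450 nt libraries alone and the compared groups alone each gave 0. For the change in controls it was 13 by DESeq2 and 4 by limma voom, and 0 with each butterfly left out. For recovery minus the change in controls it was 34 by DESeq2, 5 by limma voom, 1 from the 650 nt libraries and 0 to 14 over omissions. For PT minus AL females it was 13 by DESeq2, 6 by limma voom, 0 with no count filter, 0 from the 450 nt libraries, 2 with the compared groups alone and 0 to 5 over omissions. For PT females minus PT males it was 5 by DESeq2 and 1 with no count filter. On the genes of the edgeR filter, a choice made after seeing the data, DESeq2 called 19, 11, 28, 9 and 1 in these 5 comparisons, in the order given. The causes were not tested. The adjusted p of MCINXTMP_016177 was 0.0797 with no count filter and 0.0759 from the 450 nt libraries.

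Counts over the AL lists, recomputed by a choice made after seeing the data, moved little: over the 11 other settings and the 19 omissions, 79% to 93.2% of the tested genes of the higher list were higher, 74.2% to 82.6% of those of the lower list were lower, and 90% to 100% of the early genes were lower. The compared groups alone tested fewer of them (265, 162 and 9 genes). The upper ends of 93.2% and 82.6% came from the model that pooled both sexes of PT, so they are not of PT females alone. In controls, recomputed without each butterfly after seeing the data, the directions of the AL recovery lists came close to those of all genes without Control1h replicate 4. Those of the lower list also did so without Control20h replicate 4 and with limma voom. The share of abundant genes differed by 0.521 percentage points with the 100 most abundant genes, against −0.527 with 10. Over omissions the difference in total counts ran from −123000 to 289000, that in the share from −1.33 to 0.165 points and that in genes detected from −320 to 26.7. Rarefied to the lowest total, a choice made after seeing the data, fewer genes were again detected in Flight20h (exact permutation p = 0.615).

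No paired analysis was possible because the labels give no replicate number that butterflies of different groups share. Control groups of 4 and 5 butterflies, and unknown flight durations, limit every comparison.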

Other observations

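Gene models with consecutive identifier numbers formed 4015 pairs among the genes tested in PT females. Both members had the same sign of log2 fold change between Flight20h and Flight1h in 2105 pairs (52.4%). Of all genes tested, 50.2% were higher and 49.8% lower. In 29 pairs both reached an unadjusted p under 0.05 with the same sign. Singly, 4.46% of all genes did so as higher and 5.16% as lower. How many such pairs unrelated genes would give was not computed. Whether such identifiers are neighbours in the genome is not given in the sources used here. The spread of a typical gene was alike at both times, with a median SD of log2 CPM of 0.937 in Flight20h and 0.897 in Flight1h.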
